A study of Mus musculus with 4 samples.

Results

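The immediate early genes described here are Fos, Fosb, Jun, Junb, Jund, Egr1, Ier2, Klf6, Dusp1 and Atf3. Each was taken by its symbol from the gene table, and all 10 were found among its 24138 rows. The table holds RNA sequencing of total liver RNA, after poly(A) enrichment, from 4 male C57BL/6J mice aged 18 weeks. Every mouse received the FAT-MASH diet, which is used to model metabolic dysfunction-associated steatohepatitis, and was treated with resolvin D1 (RvD1), an oxygenated derivative of docosahexaenoic acid that promotes the resolution of inflammation. The 4 livers form a single group and are called livers 1 to 4 by the numbers in their labels. No other group was analysed here, so the values give levels in treated animals and their spread, and what RvD1 or the diet changes was not measured.

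Immediate early genes are transcribed within minutes of a signal because the factors that switch them on, such as serum response factor, its ternary complex partners and CREB, are already present in the resting cell and are activated by kinases. Most encode transcription factors with short-lived mRNAs. Jun, Junb and Jund pair with Fos proteins, with each other or with Atf3 through leucine zippers to form the AP-1 factors, whereas Egr1 and Klf6 bind DNA through zinc fingers. Dusp1 encodes a phosphatase that switches the MAP kinases off again. In liver these genes are known to respond to partial hepatectomy, injury, inflammation, feeding and fasting, and glucocorticoids.

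Sequences just before the start site of several members are shown first, because 7 of the 8 members with an entry held a binding motif for CREB and ATF proteins there. The 250 bases before the RefSeq start site (assembly GRCm38.p6, written 5′ to 3′ on the strand of the gene) were searched on both strands for TGACNTCA, the cAMP response element and its variants, and for its core TGACG. Any match is in capitals. The core lies within TGACGTCA, so the motifs can overlap. Entries were found for 8 of the 10 members. Not among them were Egr1 and Ier2.
Jun (chr4:95052223-95052472, minus strand): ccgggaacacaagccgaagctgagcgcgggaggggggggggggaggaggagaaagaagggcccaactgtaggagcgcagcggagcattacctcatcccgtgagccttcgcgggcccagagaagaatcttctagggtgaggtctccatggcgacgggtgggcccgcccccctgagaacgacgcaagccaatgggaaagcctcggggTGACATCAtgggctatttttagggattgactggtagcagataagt
Klf6 (chr13:5861239-5861488, plus strand): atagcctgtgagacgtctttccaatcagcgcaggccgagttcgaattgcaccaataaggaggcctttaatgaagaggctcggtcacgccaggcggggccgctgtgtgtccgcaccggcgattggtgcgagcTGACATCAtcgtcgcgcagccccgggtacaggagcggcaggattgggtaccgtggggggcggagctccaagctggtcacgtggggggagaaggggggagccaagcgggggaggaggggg
Junb (chr8:84978749-84978998, minus strand): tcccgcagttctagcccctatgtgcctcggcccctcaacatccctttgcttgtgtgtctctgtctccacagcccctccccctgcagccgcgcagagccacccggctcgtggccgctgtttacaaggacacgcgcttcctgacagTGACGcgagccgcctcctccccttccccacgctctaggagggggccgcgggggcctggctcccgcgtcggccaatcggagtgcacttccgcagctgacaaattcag
Dusp1 (chr17:26508473-26508722, minus strand): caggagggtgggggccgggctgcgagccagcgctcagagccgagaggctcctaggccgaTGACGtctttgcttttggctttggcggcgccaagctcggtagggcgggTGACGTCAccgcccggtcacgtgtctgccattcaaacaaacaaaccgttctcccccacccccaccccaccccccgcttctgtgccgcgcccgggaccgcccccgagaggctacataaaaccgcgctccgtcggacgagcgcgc
Fos (chr12:85473640-85473889, plus strand): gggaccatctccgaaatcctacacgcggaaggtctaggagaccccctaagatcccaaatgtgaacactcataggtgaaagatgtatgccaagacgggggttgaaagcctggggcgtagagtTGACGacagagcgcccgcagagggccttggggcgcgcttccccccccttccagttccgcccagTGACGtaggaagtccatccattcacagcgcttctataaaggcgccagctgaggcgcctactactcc

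Jun held TGACATCA from 45 to 38 bases before its start site, and Klf6 held the same letters from 119 to 112 bases before its own. TGACATCA was singled out after the sequences were seen. It was found in 2.93% of the 32851 promoter entries of this length. Dusp1 held TGACGTCA from 143 to 136 bases before the start, which was found in 1.55% of entries. In all, TGACNTCA was present in 3 of the 8 members (Jun, Klf6 and Dusp1), against 7.49% of all entries, and the core TGACG in 5 of 8 (Fos, Fosb, Junb, Dusp1 and Atf3), against 17.8%. At least 1 of these motifs was present in 7 of 8 members and in 23% of all entries, and Jund was the member without either. Also searched were the GC-rich GGGCGG, found in 6 of 8 members against 32.7% of entries, and CCAAT, in 3 of 8 against 33.8%. TATAA was in 1 of 8 against 22.8%. Whether the matches to TGACNTCA and TGACG go with GC-rich promoters was not tested. The 7-base AP-1 motif TGANTCA (6.75% of all entries) and the CArG box, which serum response factor binds (1.47%), had 0 matches in the 8 windows. Bases further upstream were not searched, and Egr1 and Ier2 had no entry, so these 0 matches cover the 8 windows only. A match describes the letters only.

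**Figure D1:**
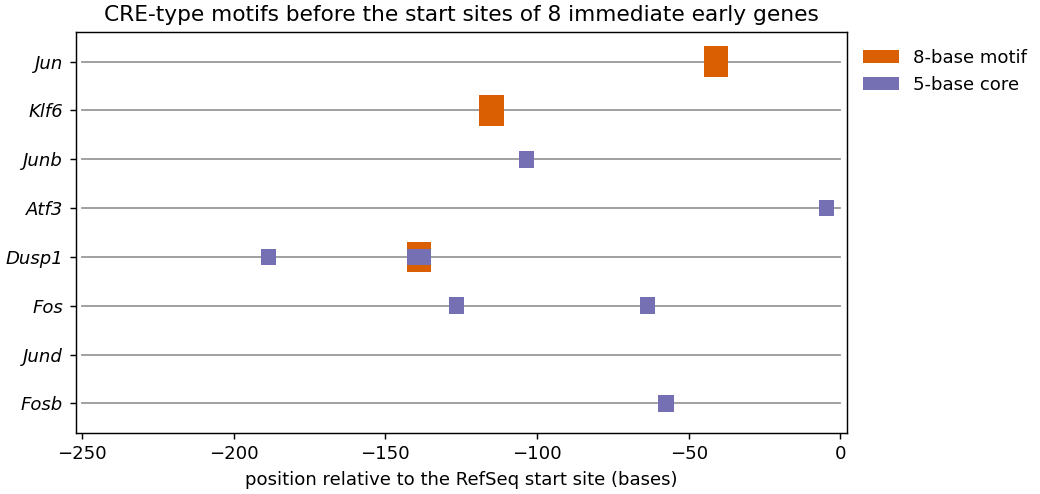
Positions of the 8-base motif TGACNTCA (orange) and of its 5-base core (purple) in the 250 bases before the RefSeq start site of 8 immediate early genes, with the start site at 0 on the horizontal axis (bases). The 8-base motif lies in the windows of Jun, Klf6 and Dusp1, and the Jund window holds neither.

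The values are FPKM, fragment numbers divided by transcript length and library size, so levels can be compared between genes. The depth was estimated at between 18.8 and 20.1 M fragments (M, mega) per library. The estimate used a fixed window of values that itself limits the depth it can return, so fragment numbers and their intervals depend on it. Between 10392 and 10582 genes had at least 1 FPKM. Values below 1 FPKM therefore rest on few fragments. Hepatocyte genes such as Apoa1, Ttr and Asgr1 were present in every library, while Alb was listed at 0 in all 4 livers and Serpina1a in livers 3 and 4. Labels do not say whether RNA was extracted or sequenced in batches.

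The members spanned a wide range of levels. Jund was the most abundant at 45.8 ± 8.85 FPKM (SD, n = 4). It was followed by Dusp1 at 19.7 ± 5.35, Junb at 18.7 ± 6.18, Jun at 16.6 ± 7.36 and Ier2 at 14.6 ± 3.99 FPKM (each SD, n = 4). Klf6 had 5.20 ± 1.92, Egr1 4.15 ± 2.04 and Atf3 1.97 ± 0.235 FPKM (each SD, n = 4). Fos and Fosb were lowest at 0.351 ± 0.167 and 0.0817 ± 0.0400 FPKM (each SD, n = 4). In this order, 4 of the 9 pairs of neighbours had ranges over the livers that did not overlap, which were Jund and Dusp1, Ier2 and Klf6, Atf3 and Fos, and Fos and Fosb. The ranges of neighbours overlapped from Dusp1 through Junb and Jun to Ier2, and also between Klf6 and Egr1 and between Egr1 and Atf3.

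**Figure D2:**
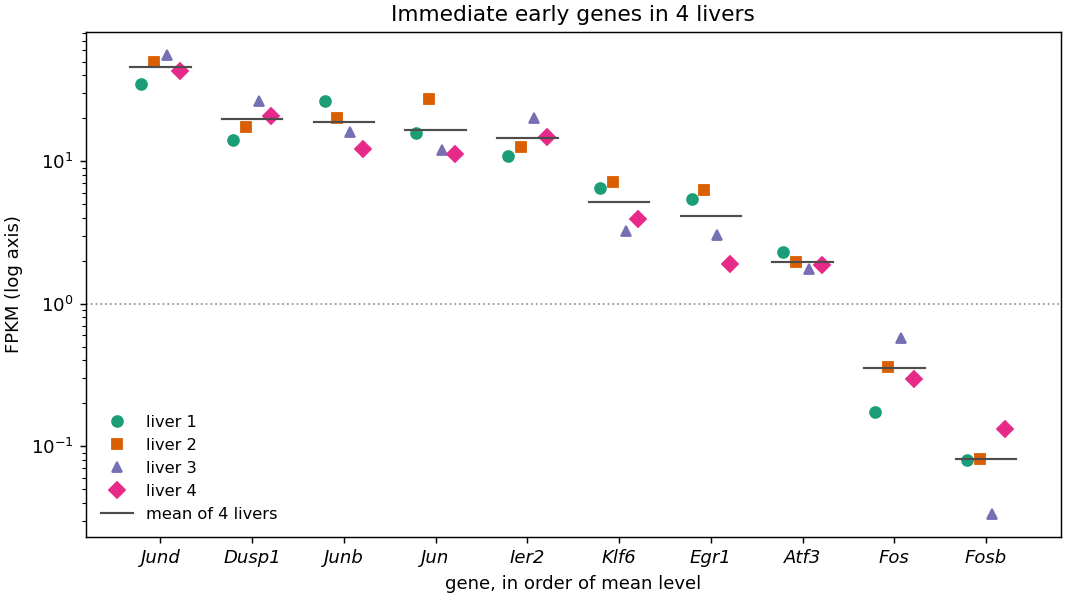
FPKM (log axis) of the 10 immediate early genes in each of the 4 livers (symbols), with the mean as a bar; the dotted line marks 1 FPKM. Jund lies above all other members, and Fos and Fosb lie below 1 FPKM in every liver.

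The Jun family was measured at levels well above 1 FPKM. Jun (chromosome 4, 95049036 to 95052222) encodes an AP-1 subunit that is needed for proliferation of hepatocytes in the regenerating liver. It was at 15.8, 27.2, 12.0 and 11.3 FPKM in livers 1 to 4. Liver 2 was therefore far above the rest, and livers 3 and 4 lay close together at the bottom. Junb (chromosome 8, 84976909 to 84978748), a subunit that often opposes Jun, was at 26.6, 20.0, 16.1 and 12.1 FPKM in livers 1 to 4. Here liver 1, not liver 2, was the highest, and livers 3 and 4 were again the lowest. Jund (chromosome 8, 70697739 to 70700616), which is transcribed in resting cells and less inducible than the other two, was at 35.0, 49.7, 55.5 and 43.1 FPKM. Its order was different, with liver 3 highest and liver 1 lowest. The highest liver exceeded the lowest 2.41-fold for Jun, 2.19-fold for Junb and 1.59-fold for Jund. Without liver 2 the range of Jun was 1.40-fold. GENCODE annotates an antisense gene over Jun (Junos) and over Jund (Gm11175), and whether reads were counted by strand is not given in the sources used here.

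Ratios within a library do not depend on how libraries are scaled. Jund made up 45.2%, 51.3%, 66.4% and 64.8% of the summed FPKM of the Jun family in livers 1 to 4. The share of Jun was 20.4%, 28.1%, 14.3% and 17.0%, and that of Junb 34.4%, 20.6%, 19.3% and 18.3%. Livers 3 and 4 thus had nearly the same composition, in which Jund predominated, while liver 1 had the largest share of Junb and liver 2 the largest share of Jun. The summed level of the 3 genes varied less, from 66.5 to 96.9 FPKM. Jun over Jund was 0.452, 0.547, 0.216 and 0.262 in livers 1 to 4.

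**Figure D3:**
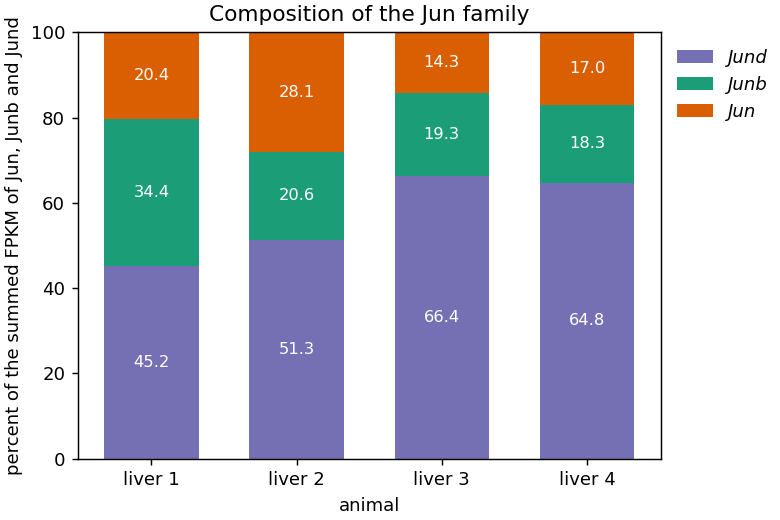
Percent of the summed FPKM of Jun, Junb and Jund contributed by each gene (stacked bars) in each liver. Jund makes up 66.4% in liver 3 and 64.8% in liver 4, against 45.2% in liver 1 and 51.3% in liver 2.

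Transcripts of the Fos family were scarce. Fos (chromosome 12, 85473901 to 85477270), the partner that stabilises Jun on DNA, was at 0.174, 0.359, 0.572 and 0.297 FPKM in livers 1 to 4. Liver 3 was highest and liver 1 lowest, as for Jund. These values correspond to about 7, 13, 21 and 11 fragments. Exact Poisson 95% intervals were 2.81 to 14.4 for liver 1 and 13.0 to 32.1 for liver 3, which overlap, so the 3.29-fold range rests on few fragments. It was 1.92-fold without liver 1 and 2.06-fold without liver 3. Fosb (chromosome 7, 19302696 to 19310045), a relative of Fos known for its stable truncated form in brain, was at 0.0801, 0.0817, 0.0335 and 0.131 FPKM. That is about 6, 6, 2 and 9 fragments, and no order between the livers was detectable at this depth. Of 3490 genes with a mean under 1 FPKM and a value above 0 in every liver, 64.0% had a range of at least 2-fold. Fosl2, which is no member, contributed 82.7 ± 6.85% (SD, n = 4) of the summed FPKM of Fos, Fosb, Fosl1 and Fosl2. The Jun family sum exceeded this Fos family sum 31.8 ± 3.63-fold (SD, n = 4).

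Atf3 (chromosome 1, 191170297 to 191183333), a stress-induced bZIP factor that often represses its targets, was at 2.30, 1.97, 1.75 and 1.87 FPKM in livers 1 to 4. The 4 values were close, with a range of 1.31-fold. They rest on about 82, 68, 61 and 63 fragments, whose Poisson intervals overlap between every pair of livers.

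The zinc finger genes followed Jun and Junb. Egr1 (chromosome 18, 34861207 to 34864956), a classical target of the ERK pathway, was at 5.41, 6.28, 3.04 and 1.89 FPKM in livers 1 to 4. Livers 1 and 2 lay clearly above livers 3 and 4. The range of 3.32-fold was the widest among the members above 1 FPKM, and was 2.07-fold without liver 4. Klf6 (chromosome 13, 5861489 to 5870393), a factor induced in injured liver and in activated stellate cells, was at 6.54, 7.12, 3.23 and 3.91 FPKM. Again livers 1 and 2 were the higher pair, with a range of 2.20-fold.

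Dusp1 and Ier2 had a different order. Dusp1 (chromosome 17, 26505591 to 26508472) was at 14.0, 17.4, 26.6 and 20.7 FPKM in livers 1 to 4. Ier2 (chromosome 8, 84661331 to 84662852), a small nuclear protein of the growth factor response, was at 10.9, 12.5, 20.0 and 14.8 FPKM. Both were highest in liver 3 and lowest in liver 1, over ranges of 1.89-fold and 1.84-fold. Their ratio hardly changed, since Dusp1 over Ier2 was 1.29, 1.39, 1.33 and 1.40. By contrast, Dusp1 over Egr1 was 2.60, 2.78, 8.77 and 10.9, a 4.21-fold range that exceeds that of either gene alone. Ier2 and Junb lie 314056 bases apart on chromosome 8 and were ordered differently, with Ier2 over Junb at 0.409, 0.626, 1.24 and 1.22.

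Across the animals the members therefore had different orders, which were noticed in the data and carry no test. In 5 of the 8 members with a mean of at least 1 FPKM (Jun, Junb, Egr1, Klf6 and Atf3) livers 1 and 2 were both above livers 3 and 4, an arrangement found in 12.4% of the 10541 genes that averaged 1 FPKM or more. In 3 of the 8 (Jund, Ier2 and Dusp1) liver 3 was highest and liver 1 lowest, which held for 6.83% of those genes. Of the members under 1 FPKM, Fos had the second order and Fosb neither. The orders are not mirror images: in Dusp1 and Ier2 livers 3 and 4 were both above livers 1 and 2, whereas in Jund and Fos liver 2 was above liver 4. For Jun, Junb, Egr1 and Klf6 the Poisson intervals of the fragments in livers 1 and 2 did not overlap those in livers 3 and 4, and for Jund, Ier2 and Dusp1 the intervals of liver 1 lay below those of liver 3. For Atf3 and Fos the corresponding intervals overlapped. Intervals cover counting error only, and their overlap is not a test of a difference. The median deviation of the 8 members above 1 FPKM was 0.09, 0.14, -0.13 and -0.18 on the log2(FPKM + 1) scale in livers 1 to 4. The medians over all 10541 genes were -0.01, -0.02, -0.01 and 0.04. With a minimum of 5 FPKM, which leaves 6 members, the members' median was -0.17 in liver 1 and 0.07 in liver 3, so its direction there depends on the filter. Over all 10 members it was 0.0088, 0.076, -0.086 and -0.059 in livers 1 to 4, and the mean of the 8 in place of their median was 0.040, 0.22, -0.020 and -0.24. The median over the 8 also depends on single livers. The liver 1 value was 0.0091 without liver 3, 0.0061 without liver 4 and 0.21 without liver 2. The liver 2 value was 0.050 without liver 4. The liver 3 value was -0.014 without liver 1, -0.081 without liver 2 and -0.23 without liver 4, and the liver 4 value was -0.091 without liver 2 and -0.27 without liver 3.

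**Figure D4:**
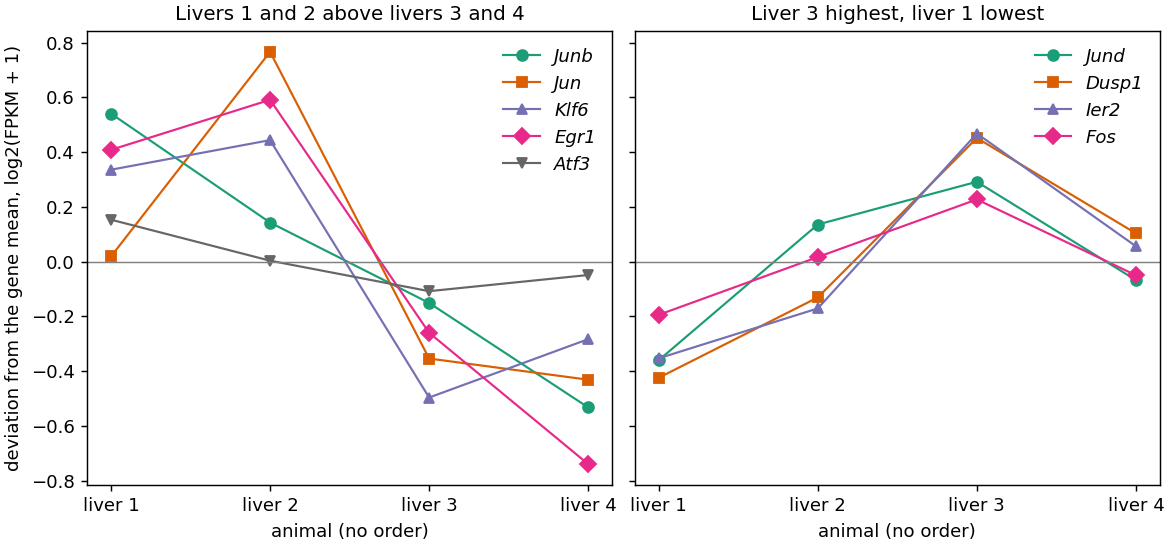
Deviation of each gene from its mean over the 4 livers, as log2(FPKM + 1), with 1 line joining the values of a gene; the livers have no order. The left panel holds the 5 genes with livers 1 and 2 above livers 3 and 4, and the right panel the 4 genes with liver 3 highest and liver 1 lowest; the genes were sorted into the panels by these values.

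The spread between animals was wide for most members. A range of at least 2-fold was found for 4 of the 8 members with a mean of at least 1 FPKM (Jun, Junb, Egr1 and Klf6), against 6.54% of the 10541 genes at that level. In each of these 4, livers 1 and 2 were also above livers 3 and 4, as in 164 of the 689 genes with a 2-fold range. Both conditions together held for 1.56% of all 10541 genes, and the order was noticed in these same values. The count of members with a 2-fold range was 3 when any single liver was left out. The SD of log2(FPKM + 1) was 0.61 for Egr1, 0.55 for Jun, 0.46 for Klf6, 0.45 for Junb, 0.37 for Dusp1, 0.35 for Ier2, 0.28 for Jund and 0.11 for Atf3. Single livers decided some of these values: the SD of Jun was 0.24 without liver 2, that of Ier2 0.21 without liver 3, that of Jund 0.18 without liver 1, and that of Atf3 0.056 without liver 1. With 5 in place of 1 added to FPKM, Egr1 had an SD of 0.33, below 0.45 for Jun and 0.37 for Junb. With all livers and 1 added, Egr1 was exceeded by 88 of the 10541 genes and Jun by 119, whereas Atf3 lay at percentile 24.9. The median over the 8 members was 0.41, and that over all genes 0.16.

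**Figure D5:**
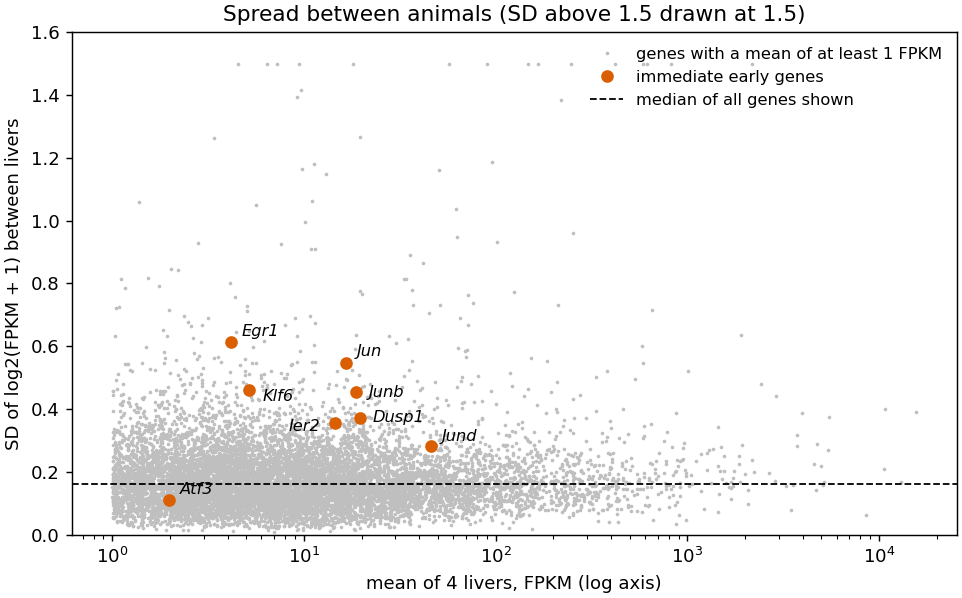
SD of log2(FPKM + 1) between the 4 livers against the mean FPKM (log axis) for 10541 genes (grey points) and the 8 immediate early genes that averaged 1 FPKM or more (orange). The dashed line is the median of all genes shown, 0.16; only Atf3 among the orange points lies below it.

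Related genes from lists chosen beside the members showed how far the variation extended. Of 43 other immediate early and early response genes in the table, 35 had a mean of at least 1 FPKM, and 8 of these had a range of at least 2-fold, against 6.54% of all genes. These were Ier3, Ier5l, Myc, Btg2, Gadd45a, Gadd45g, Sik1 and Cebpb. Their median SD was 0.25. Btg2, an antiproliferative gene, was at 10.2, 14.5, 6.19 and 5.95 FPKM in livers 1 to 4, the order seen for Jun. It was the sole gene among the 8 with livers 1 and 2 above livers 3 and 4. Klf2, a flow-responsive factor of endothelium, was at 4.02, 5.27, 7.58 and 5.40 FPKM, the order of Dusp1. Of the 35 genes, 6 had livers 1 and 2 above livers 3 and 4, against 12.4% of all genes. Another 3 had liver 3 highest and liver 1 lowest, against 6.83% of all genes. Myc, the proliferation factor, reached 14.3 FPKM in liver 4, with the others from 2.28 to 3.54 FPKM. Gadd45g, a growth arrest gene, was likewise highest in liver 4 at 24.0 FPKM, with the others from 4.39 to 6.59 FPKM. None of the 10 members had its highest value in liver 4 except Fosb. Nr4a1, an immediate early nuclear receptor, was at 0.618, 0.663, 0.537 and 0.752 FPKM.

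Of 14 other AP-1 and small bZIP genes, 10 had a mean of at least 1 FPKM and 1, Maff, had a 2-fold range, which is near the 6.54% of all genes. Maff, a small Maf protein, was at 4.24, 5.02, 2.61 and 2.50 FPKM in livers 1 to 4, with livers 1 and 2 above the others, an order found in 12.4% of all genes. Fosl2 was at 2.27, 2.53, 1.69 and 1.97 FPKM, and Fosl1 was listed at 0 in all 4 livers. The median SD of the 10 genes was 0.15.

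The spread of the signalling components upstream was near that of all genes. All 29 kinases and factors of the upstream list had a mean of at least 1 FPKM, and 2 had a 2-fold range, namely Egfr, the epidermal growth factor receptor, and Mef2d, a MADS box factor, against the 6.54% given above for all genes. The median SD was 0.15, beside 0.16 for all genes. Srf, which encodes serum response factor, was at 4.47, 4.67, 5.76 and 4.28 FPKM, with liver 3 highest. Egfr was at 46.1, 61.7, 94.6 and 63.4 FPKM, with liver 3 highest and liver 1 lowest as for Dusp1. Of 19 other MAP kinase phosphatases and feedback inhibitors, 13 had a mean of at least 1 FPKM, and 1, Dusp14, had a 2-fold range. Their median SD was 0.14. Dusp6, a MAP kinase phosphatase, was at 17.4, 16.8, 14.0 and 15.0 FPKM, so that livers 1 and 2 were higher here, unlike Dusp1.

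Lists of genes that respond to hormones, feeding, time of day and handling were read in the same way. Igfbp1, a secreted protein of fasting liver, was at 59.3, 104, 19.6 and 20.1 FPKM in livers 1 to 4, the same order of pairs as Jun. In the list of glucocorticoid and fasting related targets, 4 of 8 genes (Fkbp5, Zbtb16, Tat and Igfbp1) had a 2-fold range, against 6.54% of all genes, and 4 of 8 (Zbtb16, Tat, Igfbp1 and Pck1) had livers 1 and 2 above livers 3 and 4, against 12.4%. G6pc, the glucose-6-phosphatase of glucose release, was instead highest in liver 3 and lowest in liver 1, at 131, 134, 242 and 149 FPKM. Tsc22d3, a direct glucocorticoid target, was at 37.0, 43.8, 41.6 and 34.9 FPKM. Of 10 clock genes that averaged 1 FPKM or more, 2 had a 2-fold range, Nr1d1 and Cry1. Livers 1 and 2 were above livers 3 and 4 in 5 (Nr1d1, Nr1d2, Per3, Clock and Dbp), against the 12.4% of all genes. Their ranges were 2.21-fold for Nr1d1, 1.38-fold for Nr1d2, 1.26-fold for Dbp, 1.11-fold for Clock and 1.09-fold for Per3. Nr1d1, which peaks by day, was at 52.7, 39.3, 25.4 and 23.9 FPKM. Cry1, a clock repressor, ran the other way at 2.88, 4.47, 5.85 and 6.03 FPKM, with livers 3 and 4 highest. In the heat shock list, 0 of the 9 genes that passed the filter had a 2-fold range, and 1, Hspa1b, had livers 1 and 2 above livers 3 and 4. Hspa1b, which shares nearly all its sequence with Hspa1a so that its value is uncertain, was at 8.22, 6.40, 4.16 and 4.50 FPKM, a range of 1.98-fold. Hspa1a, left out by the filter, was at 1.02, 0.691, 0.433 and 0.170 FPKM in livers 1 to 4. Its range was 6.04-fold with livers 1 and 2 again the higher pair, but such low values rest on few fragments. The pair was not summed, so the count of 0 does not cover their joint level. The summed level of 14 acute phase genes was 21274 FPKM in liver 2, with the other livers from 9496 to 12822 FPKM. Of these genes 10 had a 2-fold range and 4 had livers 1 and 2 above livers 3 and 4, and their median SD was 0.50, above the 0.41 of the members. The part of feeding state, hormones, time of day, handling or the acute phase response in the spread of the members was not tested.

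Markers of other cell types were summed in the same way. In bulk tissue, fewer cells of a type and less RNA per cell cannot be told apart. The 8 stellate cell and fibroblast markers summed to 259, 329, 214 and 242 FPKM in livers 1 to 4, so livers 1 and 2 were the higher pair in the sum. Of these markers 3 of 8 (Col1a1, Col3a1 and Lrat) had that order themselves, against 12.4% of all genes. Most of the sum was Dcn, a fibroblast proteoglycan, at 140, 194, 117 and 141 FPKM, where liver 1 lay below liver 4. The 3 erythroid rows summed to 1076, 829, 427 and 705 FPKM, mostly from a pair of rows for the globin gene Hba-a1, both with livers 1 and 2 highest. Alas2, the erythroid enzyme of heme synthesis, did not have that order, at 55.8, 43.8, 64.0 and 57.0 FPKM, with liver 3 highest and liver 2 lowest. The 7 endothelial markers summed to between 48.1 FPKM in liver 1 and 65.6 FPKM in liver 2, and the 8 macrophage markers to 163, 209, 161 and 218 FPKM. Neutrophil markers, 7 of 8 in the table, summed to 19.2 FPKM in liver 2, with the others from 9.03 to 11.7 FPKM, with Mpo listed at 0 in liver 3 and Retnlg at 0 in liver 4. Markers of T, NK and B cells summed to between 3.78 and 4.63 FPKM, and 5 cholangiocyte markers to between 192 and 233 FPKM. The 4 adipose markers summed to between 0.609 and 4.49 FPKM. Plin1 and Lep were listed at 0 in all livers, and Adipoq at 0 in livers 2 and 4. Cfd was at 2.81, 0.961, 0.556 and 4.49 FPKM in livers 1 to 4, with liver 4 highest. The part of these cells in the pattern of Jun, Junb, Egr1 and Klf6 was not tested.

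The genes whose deviations were most like those of the members were sought among 10517 other genes by the root mean square difference over the 4 livers, in log2(FPKM + 1). Nearest to the members' median profile, whose own root mean square was 0.14, were Riok1, Slc10a7, Sod3, Snapin, Armc10, Smg1, Zeb2, Pcm1, Tbx20 and Nfkbia, with differences from 0.02 to 0.03. Riok1 was at 2.48, 2.66, 2.03 and 1.97 FPKM in livers 1 to 4. The median profile depends on the filter and on single livers, and the genes nearest to it were not sought with another filter. Nearest to Fos were Rgs10, Rab4b, Zdhhc13, Pdlim4 and Irf2bpl, with differences from 0.01 to 0.02 against a root mean square of 0.15 for Fos itself. The Fos profile rests on 7 to 21 fragments per liver, with a counting error of 21.8% to 37.8%. The order of such small differences from it therefore cannot be relied on. Since the members differed in order, the search was repeated for Jun and Dusp1 after their values were seen. Adm was nearest to Jun with a difference of 0.09, at 0.969, 2.23, 0.455 and 0.614 FPKM, and Btg2, Col6a1 and Tmem47 were also among the 5 nearest. Among the 5 nearest to Dusp1 were C8b, Cyp26a1, Slc45a3 and Ece2, with differences of 0.05 to 0.06. Among the members themselves, the smallest difference of the 45 pairs was that of Ier2 and Dusp1 at 0.05, and the largest that of Egr1 and Dusp1 at 0.78.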

How the data were processed

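The deposited table gives, for each gene, a symbol, a span and a value per liver. The header names no unit, and the values were taken as FPKM made by the authors, because they are not whole numbers and the identifiers have the Cufflinks form. Per the submitters' processing notes, FastQC 0.10.1, Trim Galore 0.6.3, cutadapt, STAR 2.7.6a, Cufflinks 2.2.1 and the mm10 build were used. The annotation and strand setting are not given in the sources used here. A value listed at 0 may be a failed estimate. Adding 1 to each start raised the share of symbols whose start equals that of RefSeq from 3.01% to 52.2%, and this was done.

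Values were analysed as log2(FPKM + 1) in python 3.11.15 with pandas 2.3.3, and procedures were checked on simulated data. With a single group no test between groups exists, and the SD between livers is the error. Whether the labelled livers differ in more than the animal is not stated. Depth was estimated from single-transcript genes longer than 800 bases, as the median of FPKM times length less 200 bases between 25 and 75. This takes values in that window to stand for a single fragment, which was not checked. The window bounds the depth that can result. Whole counts could not be recovered, so fragment numbers are approximate. The members, lists, measures and alternatives were chosen with earlier results of these data known. Named genes are the members, the genes of the lists, the 10 genes nearest to the members' median profile and the 5 nearest to Fos; others are marked as chosen after their values were seen.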

Additional observations from a re-analysis of the deposited data

Results flagged for a closer look

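Values of the 10 members and of the genes of all lists, cell type markers included, that averaged 1 FPKM or more were examined for a liver that stood apart from the other 3, by the gap to the nearest liver divided by the range on the log2(FPKM + 1) scale, against Dixon's 95% limit for 4 samples. Of 180 gene entries, 7 (3.89%) passed it, where chance gives about 1 in 20. No member did. Mapk9, a JNK kinase gene, was at 12.9 FPKM in liver 3, and the others ranged from 16.38 to 16.4 FPKM (ratio 0.987). Mef2a was at 7.79 FPKM in liver 2, and the others ranged from 6.45 to 6.51 FPKM (0.949). Spred1, an inhibitor of ERK signalling, was at 3.52 FPKM in liver 4, and the others ranged from 3.95 to 4.00 FPKM (0.902). Elk3 was at 2.61 FPKM in liver 3, and the others ranged from 2.96 to 3.03 FPKM (0.837). Orm1, an acute phase glycoprotein, was at 1631 FPKM in liver 2, and the others ranged from 758 to 812 FPKM (0.911). Among the cell type markers, Apoa1, the hepatocyte apolipoprotein, was at 15343 FPKM in liver 4, with the others from 11922 to 12320 FPKM (0.870). Sox9, a cholangiocyte factor, was at 3.37 FPKM in liver 4, with the others from 4.88 to 5.22 FPKM (0.841).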

How the results depend on the processing

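No paired analysis was possible because there is a single group of livers. The results were recomputed under 12 alternatives, among them pseudocounts of 0.1 and 5, 3 other scalings, other filters and each liver left out. With a minimum of 5 FPKM, which leaves 6 members, the median deviation of the members was -0.17 in liver 1 and 0.070 in liver 3, opposite to the values with a minimum of 1 FPKM, because Egr1 and Atf3 are then left out. With the minimum of 1 FPKM kept, that median deviation in liver 1 was 0.035 with a pseudocount of 5, beside 0.086 as reported. In liver 4 it was -0.28 when libraries were scaled to an equal sum, beside -0.18 as reported. The median SD of the members was from 0.33 to 0.44 when a liver was left out, and 0.30 with a pseudocount of 5. The count of members with a 2-fold range was 4 under each scaling, while the share of all genes was 10.7% when libraries were scaled to an equal sum and from 3.89% to 5.03% when a liver was left out. Without a filter the count was 6 and the share 21.8%, and with a minimum of 5 FPKM they were 3 and 2.95%. The counts of the 2 orders were added after the data were seen and stayed at 5 and 4 of all 10 members under each scaling; without liver 4 the first was 6. Of 220 values for single members, 18 moved beyond the limits set, 7 of them through the pseudocount. Fos and Fosb rest on few fragments and limit any statement on them.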
